A study of Homo sapiens with 16 samples.

Results

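Gene expression of BT474 breast cancer cells kept for 20 days as spheroids was compared with that of the same cells grown flat as monolayers. The comparison was chosen by culture, as the 2 day 20 spheroid libraries against the 2 monolayer libraries of BT474, which are 4 of the 16 libraries in the series. The study sequenced poly(A) RNA of 4 human breast cancer lines as monolayers and, for BT474 and HCC1806, also as spheroids sampled at day 10 and day 20. All BT474 cultures received DMEM with fetal bovine serum, and no drug or genetic change is named for any of them. The 2 day 10 spheroid libraries of BT474 entered the same fit, so that 6 libraries shared 1 estimate of the spread. The titles give the groups, since the treatment label names a monolayer even for the spheroid samples. How the spheroids were formed is not given in the sources used here. Each group holds 2 libraries, and the labels do not say whether these came from separate cultures, so a p-value measures only the spread between these libraries, which may be technical.

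BT474 is an established line of luminal breast cancer cells, known for amplification of the ERBB2 (HER2) receptor gene and for expression of the oestrogen and progesterone receptors. In a monolayer each cell is attached to plastic and spread, whereas in a spheroid most cells touch only other cells, and the supply of oxygen and nutrients falls towards the centre. Cell spreading is known to keep the transcription cofactors YAP and TAZ in the nucleus, and dense cell contact is known to send them out of it.

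Levels are given as CPM, a gene's counts scaled to a common library total with the edgeR library factors, for replicate 1 and replicate 2 in that order. Changes are log2 fold changes of day 20 over monolayer with their standard error. A gene was called, and is described as having risen or fallen, at an adjusted p (edgeR quasi-likelihood test, Benjamini-Hochberg over all genes tested) under 0.05. Of 17447 genes tested, 1562 were called higher at day 20 (8.95%) and 1509 lower (8.65%), and the median change was 0.00. At 2-fold or more, 541 genes were called higher (3.1%) and 290 lower (1.66%). The counts depended on single libraries. Without day 20 replicate 2 the calls numbered 628 higher and 448 lower, without day 20 replicate 1 they numbered 764 and 617, without monolayer replicate 1 they numbered 2532 and 2654, and without monolayer replicate 2 they numbered 2573 and 2423. A core of 506 higher and 348 lower genes was called in the same direction in all 6 fits that left out 1 library. Each gene below said to have risen or fallen belongs to this core unless a library and the adjusted p without it are named beside the gene. With 2 libraries a group, separate values are common: in 28.9% of all genes tested both day 20 libraries lay above both monolayers and in 27.6% both lay below, so that the groups did not overlap in 56.4%. Statements below that groups were apart are to be read against these shares. Counts of list members called higher or lower are to be read against the 8.95% and 8.65% of all genes. Among protein-coding genes alone the shares were larger, with 1382 of 13611 called higher and 1418 lower (20.6% together, against 17.6% of all genes). Each fit without 1 library applied the count filter anew, so its list counts and medians may cover other members than the fit of 6 libraries. With the 6 HCC1806 libraries added to the fit, 37 genes were called higher and 12 lower.

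The 6 libraries held 38230329 to 72489002 counts. The monolayer pair had the widest spread of the 3 pairs, with a standard deviation of log2 differences of 0.499 against 0.430 in the day 20 pair and 0.358 in the day 10 pair. The defining genes of the labelled line were abundant. ERBB2 stood at 7422 and 6535 CPM in monolayers and 6390.4 and 6407 CPM at day 20 (-0.13 ± 0.08, adjusted p = 0.287). Without monolayer replicate 2 the ERBB2 change was -0.21. The luminal keratin KRT8 stood at 3894 and 3164 CPM in monolayers and at 3618 and 3674 CPM at day 20. Of the defining markers of other cell types, DCN (fibroblasts), PECAM1 (endothelium) and PTPRC and CD3E (leukocytes) had no count in either group. COL3A1, CDH5 and CD14 had 1, 24 and 8 counts over both monolayers and 8, 6 and 0 at day 20. Collagen COL1A1 stood at 73.9 and 73.5 CPM in monolayers and 88.6 and 78.2 CPM at day 20, and VWF at 7.97 and 6.88 CPM and 6.13 and 6.0 CPM. The 15 fibroblast markers summed to 125 and 106 CPM in monolayers and 128 and 120 CPM at day 20, with 7 and 8 of them at 0 counts. In bulk RNA, fewer cells of a kind and less RNA per cell cannot be told apart.

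Genes of secreted gland proteins were among those with the largest rises in day 20 spheroids. LYZ, which encodes the antibacterial enzyme lysozyme (ENSG00000090382, chromosome 12, 69348341 to 69354234 on GRCh38), stood at 0.354 and 0.282 CPM in monolayers and 24.7 and 24.2 CPM at day 20, with 15.4 and 18.6 CPM at day 10. It rose by 6.25 ± 0.21, the largest log2 change among the called protein-coding genes of at least 5 CPM (adjusted p = 4.37e-08). The day 20 libraries were close to each other and far above both monolayers. LYZ was also the only leukocyte marker of 5 tested that was called higher, and the other 19 leukocyte markers on that list together summed to 17.2 and 14.8 CPM at day 20 against 25.7 and 16.2 CPM in monolayers.

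PIP, the prolactin-induced protein of apocrine glands (ENSG00000159763, chromosome 7, 143132077 to 143139746), stood at 10 and 7.71 CPM in monolayers and 130.1 and 131 CPM at day 20 (3.88 ± 0.12, adjusted p = 4.37e-08). AZGP1, a zinc-binding glycoprotein of secretory epithelium (ENSG00000160862, chromosome 7, 99966720 to 99976157), stood at 2.27 and 1.06 CPM and 21.5 and 25.3 CPM (3.82 ± 0.26, adjusted p = 1.20e-05). MUCL1, a small breast mucin (ENSG00000172551, chromosome 12, 54830519 to 54858393), was the most abundant of these at day 20, with 1196 and 1382 CPM against 165 and 91 CPM in monolayers (3.33 ± 0.33, adjusted p = 0.00666). In all 3 genes every day 20 library lay above both monolayers, although the MUCL1 monolayers were far apart. Of 14 apocrine and milk protein genes tested, 6 rose and 1 fell, with a median change of 0.84, and 5 of the 6 rose in all 6 left-out fits. The mammaglobin gene SCGB2A2, which was picked for naming after its value was seen, rose by 1.03 (adjusted p = 0.000821), as did ELF5, a transcription factor of milk-producing alveolar cells (34.1 and 46.3 CPM to 86.4 and 95.2 CPM, 1.17 ± 0.13, adjusted p = 0.000159). The exception was lactoferrin (LTF), also picked after its value was seen, at -2.40, which was not called without day 20 replicate 1 or 2 (highest adjusted p = 0.0993). The other 11 list members had too few counts to test. Without monolayer replicate 1 the list's rises numbered 8 and its falls 2, and without monolayer replicate 2 they numbered 7 and 3. The median was 0.52 without day 20 replicate 1, over the list members that passed the count filter in that fit.

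KLK12, KLK11 and KLK10, members of the kallikrein family of secreted serine proteases clustered on chromosome 19, rose from low levels. KLK12 (ENSG00000186474, chromosome 19, 51029092 to 51035230) stood at 0.495 and 0.493 CPM in monolayers and 31.7 and 30.9 CPM at day 20 (5.98 ± 0.20, adjusted p = 4.37e-08). KLK11 stood at 0.566 and 1.79 CPM and 17.9 and 17.2 CPM (3.90 ± 0.37, adjusted p = 0.000312), and KLK10 at 0.118 and 0.658 CPM and 9.31 and 7.9 CPM (4.46 ± 0.43, adjusted p = 0.000157). No monolayer library reached the lowest day 20 value of any of the 3. KLK7, picked after its values were seen, had 0 counts over both monolayers and 109 over both day 20 libraries, so that it was at least 40.5-fold higher, taking the 2 monolayers together at a floor of 3 counts.

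Of 19 genes tested on a list of proteases and their inhibitors, which holds KLK10 and KLK11, 3 rose and 3 fell, with a median of -0.01 (0.27 without monolayer replicate 1, -0.07 without monolayer replicate 2, 0.06 without day 20 replicate 2). The rises numbered 6 without monolayer replicate 1, and the falls 1, the metalloprotease ADAMTS1 (-2.01, adjusted p = 0.00189), without either day 20 library. Named for the size of their change, TFPI2, SERPINA5 and CST1 are protease inhibitors. TFPI2, which blocks matrix-degrading serine proteases, stood at 0.755 and 1.03 CPM in monolayers and 16.9 and 20.2 CPM at day 20 (4.37 ± 0.20, adjusted p = 5.47e-07). SERPINA5, the protein C inhibitor, stood at 0.637 and 0.47 CPM and 10.1 and 9.92 CPM (4.17 ± 0.25, adjusted p = 3.37e-06). CST1, a salivary-type cystatin that blocks cysteine proteases, stood at 13.7 and 6.44 CPM and 249 and 169 CPM (4.37 ± 0.49, adjusted p = 0.013). CST2, its close relative on chromosome 20, was at 0.991 and 4.06 CPM and 35.2 and 32.4 CPM (log2 change 3.74), and was not called without any 1 of the 4 spheroid libraries (highest adjusted p = 0.136). The cystatin genes are near copies of each other and may share or lose reads. Other genes with large rises were LRG1, a secreted leucine-rich glycoprotein (1.49 and 0.799 CPM to 10.3 and 14.1 CPM, 3.42 ± 0.28, adjusted p = 2.73e-05), and NOS3, the endothelial-type nitric oxide synthase (5.12 and 2.61 CPM to 40.4 and 38 CPM, 3.34 ± 0.30, adjusted p = 0.00055). Beside NOS3, the endothelial marker list summed to 35.4 and 33.9 CPM in monolayers and 50.5 and 47.1 CPM at day 20, mostly from EGFL7, and to 15.9 and 17.8 CPM and 17.8 and 17.0 CPM without it. EGFL7 itself rose by 0.82 (adjusted p = 0.00122). The defining markers PECAM1 and CDH5 were at 0 and at or under 24 counts. The other defining marker, VWF, was expressed, at 7.97 and 6.88 CPM in monolayers and 6.13 and 6.0 CPM at day 20.

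**Figure D1:**
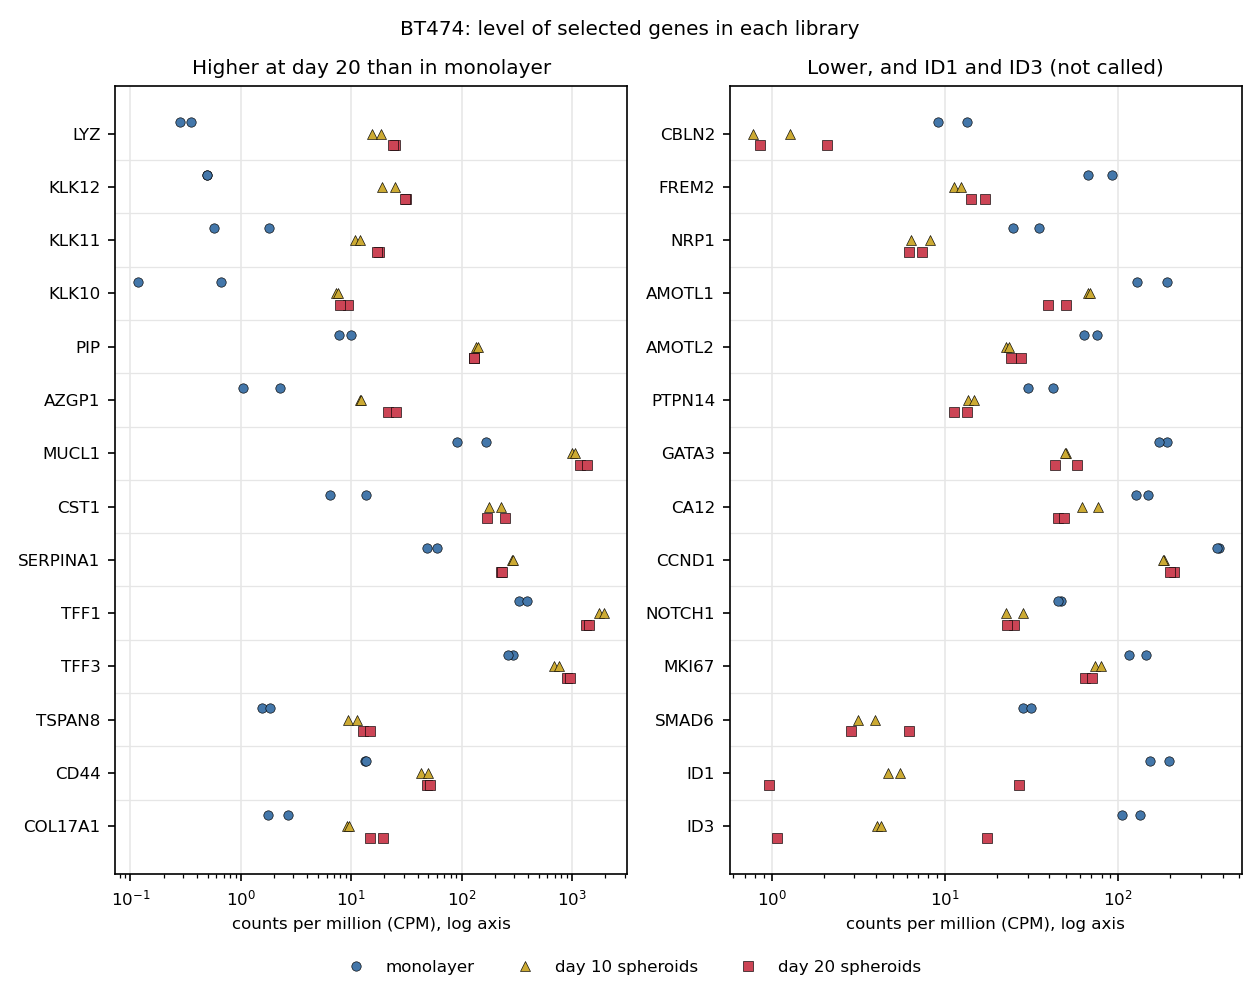
CPM (log axis) of 28 genes in each of the 6 BT474 libraries, 1 symbol per library, with monolayers as blue circles, day 10 spheroids as yellow triangles and day 20 spheroids as red squares. The 14 genes on the left rose and, of those on the right, all but ID1 and ID3 were called lower. The 2 day 20 values of ID1 (26.7 and 0.961) and of ID3 lie far apart.

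More known targets of the oestrogen receptor were called higher than lower, and the receptor transcript itself did not pass. ESR1 stood at 66.3 and 104 CPM in monolayers and 77.3 and 83.6 CPM at day 20 (-0.08 ± 0.18, adjusted p = 0.81). Its monolayers were far apart, with a change of 0.28 without monolayer replicate 2 and of -0.37 without monolayer replicate 1, so that the sign depended on 1 library. Of 21 targets tested, 10 rose and 2 fell, with a median change of 1.03, and 8 of the 10 rose in all 6 left-out fits. The falls numbered 5 without monolayer replicate 1. TFF1, a trefoil peptide of mucous surfaces and a classic oestrogen-induced gene (ENSG00000160182, chromosome 21, 42362282 to 42366594), stood at 332 and 395 CPM and 1331 and 1444 CPM (1.93 ± 0.10, adjusted p = 7.29e-07). TFF3, its neighbour on chromosome 21 (ENSG00000160180, chromosome 21, 42311667 to 42315651), stood at 292 and 261 CPM and 906 and 957 CPM (1.75 ± 0.08, adjusted p = 6.18e-07). SERPINA1, which encodes alpha-1 antitrypsin (ENSG00000197249, chromosome 14, 94376747 to 94390693), stood at 48.7 and 59.8 CPM and 229 and 232 CPM (2.09 ± 0.10, adjusted p = 5.47e-07). For these 3 genes the replicates of each group were close, and the groups did not overlap, as in 56.4% of all genes.

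IGFBP4, a secreted binding protein of insulin-like growth factors, rose from 344 and 424 CPM to 785 and 874 CPM (1.11 ± 0.10, adjusted p = 5.84e-05). IRS1, the adaptor of the insulin-like growth factor receptor, which is not on that list, rose from 39.1 and 48.3 CPM to 88.4 and 100.4 CPM (1.11 ± 0.12, adjusted p = 0.000176). The chemokine gene CXCL12 stood at 18.3 and 29.2 CPM and 51.6 and 55.2 CPM (1.17 ± 0.18, adjusted p = 0.00283). The other direction was taken by CA12, a carbonic anhydrase of the cell surface (126 and 149 CPM to 45.1 and 48.6 CPM, -1.55 ± 0.12, adjusted p = 1.65e-05), and by CCND1, the G1 cyclin D1 (379.9 and 374 CPM to 211 and 198 CPM, -0.88 ± 0.07, adjusted p = 2.17e-05). PGR, the progesterone receptor, stood at 341 and 687 CPM in monolayers and 1031 and 1214 CPM at day 20 (1.13 ± 0.38, adjusted p = 0.149). GREB1, a cofactor of the receptor, stood at 328 and 672 CPM and 1127 and 1299 CPM (1.28 ± 0.40, adjusted p = 0.129). Both genes were higher in every spheroid library than in either monolayer, but the monolayers were far apart and neither gene passed. PGR was at 1.72 and 0.71 without monolayer replicate 2 and 1. A fit with a lone monolayer holds no spread of that group, so it cannot settle whether PGR rose.

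The transcription factors that mark luminal identity moved in both directions. GATA3, which specifies luminal cells (ENSG00000107485, chromosome 10, 8045378 to 8075203), was at 190.0 and 171 CPM in monolayers and 58 and 43.1 CPM at day 20, with 49.7 and 49.3 CPM at day 10 (-1.84 ± 0.13, adjusted p = 8.23e-06). It was therefore lower in every spheroid library. TRPS1 and TBX3, 2 further luminal factors, fell by 0.55 and 0.54 on the log2 scale (adjusted p = 0.00123 and 0.000851). FOXA1, which opens chromatin for the hormone receptors, was at -0.26, not called without any 1 of the 4 spheroid libraries (highest adjusted p = 0.302). MYB, a proto-oncogene of luminal cells, rose from 24.1 and 25 CPM to 48.4 and 51.7 CPM (1.03 ± 0.10, adjusted p = 0.000115), and XBP1, a factor of secretory cells, from 976 and 1045 CPM to 1332 and 1354 CPM (0.41 ± 0.07, adjusted p = 0.00241). MUC1, a mucin of the apical surface, was at 0.51 (adjusted p = 0.167 without day 20 replicate 1), and ERBB3, the partner receptor of ERBB2, at 0.25, lost without any 1 of the spheroid libraries (highest adjusted p = 0.325). In total 5 of 19 luminal factors rose and 5 fell, with a median change of 0.05 (0.17 without monolayer replicate 1, -0.01 without monolayer replicate 2). Without monolayer replicate 1 or 2 the rises numbered 9, and without day 20 replicate 1 they numbered 3.

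Genes around ERBB2 on chromosome 17 are often amplified together with it in breast cancer. Of 16 amplicon genes tested 7 rose and 1 fell, with a median of 0.24, and 2 were called higher in all 6 left-out fits. The median was 0.09 without monolayer replicate 2 and 0.16 without day 20 replicate 1. The 2 were GSDMB, a pore-forming gasdermin (52.8 and 57 CPM to 122 and 96.2 CPM, 0.99 ± 0.11, adjusted p = 0.000182), and MIEN1, a membrane-anchored protein next to ERBB2, at 0.39 (adjusted p = 0.00323). The member with the largest change was PPP1R1B, the phosphatase inhibitor DARPP-32, which stood at 2.95 and 0.94 CPM and 6.1 and 8.62 CPM (1.92 ± 0.44, adjusted p = 0.0209), and the muscle gene TCAP was at 0.71. Neither was called without day 20 replicate 1 or 2 (highest adjusted p = 0.137 and 0.0794). Without day 20 replicate 1 the list's rises numbered 3, and without replicate 2 they numbered 2. The 1 fall, of the lymphoid factor IKZF3, was -0.31 and was not called without any 1 of the spheroid libraries (highest adjusted p = 0.169). The falls numbered 3 and 4 without monolayer replicate 1 and 2.

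Markers used to describe breast stem-like cells did not move together. CD44, the hyaluronan receptor (ENSG00000026508, chromosome 11, 35138870 to 35232402), stood at 13.4 and 13.7 CPM in monolayers and 48.3 and 52.2 CPM at day 20 (1.89 ± 0.11, adjusted p = 3.37e-06). TSPAN8, a tetraspanin of the cell surface, stood at 1.56 and 1.83 CPM and 12.8 and 14.9 CPM (3.03 ± 0.19, adjusted p = 4.45e-06), and CXCR4, the receptor of CXCL12, at 9.84 and 10.1 CPM and 20.1 and 19.6 CPM (0.99 ± 0.11, adjusted p = 0.000208). Each of these 3 was higher in both day 20 libraries than in either monolayer. SOX2, a pluripotency factor, was at 2.43 and 1.64 CPM and 3.82 and 4.47 CPM (log2 change 1.02, adjusted p = 0.111 without day 20 replicate 2). Lower were the aldehyde dehydrogenase ALDH1A3 (3.61 and 2.7 CPM to 1.33 and 1.12 CPM, adjusted p = 0.0871 without day 20 replicate 2), PROM1 (CD133) and the polycomb gene BMI1, at log2 changes of -1.55 and -0.33, both lost without any 1 of the spheroid libraries (highest adjusted p = 0.196 and 0.235). ALDH1A1 was at 10.7 and 23.3 CPM and 10.4 and 7.95 CPM (-0.89 ± 0.35, adjusted p = 0.134), and CD24 at 1373 and 1741 CPM and 1904 and 1947 CPM (0.31 ± 0.10, adjusted p = 0.0533). Neither passed, nor did KLF4 (-0.05 ± 0.11, adjusted p = 0.808) or MYC (-0.10 ± 0.12, adjusted p = 0.65). Of these 4, ALDH1A1 and MYC were at -1.35 and -0.30 without monolayer replicate 1, and CD24 at 0.49 without monolayer replicate 2. Those fits hold a lone monolayer and no spread of that group. In all, 4 of 18 tested members rose and 3 fell, with a median of -0.14, and 7 members had too few counts to test. That median was -0.32 without monolayer replicate 1 and 0.08 without monolayer replicate 2. The falls numbered 7 without monolayer replicate 1, 1 without either day 10 library or day 20 replicate 1, and 0 without day 20 replicate 2.

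SOX9, a factor of luminal progenitors, rose from 31 and 22.3 CPM to 63.2 and 70.5 CPM (1.33 ± 0.14, adjusted p = 0.000121), and LEF1, a partner of beta-catenin, from 1.7 and 3.36 CPM to 10.6 and 8.44 CPM (1.91 ± 0.27, adjusted p = 0.000905). Of 27 collagen and matrix genes tested 5 rose and 4 fell, with a median of 0.11 (0.26 without monolayer replicate 1, 0.05 without monolayer replicate 2 or day 20 replicate 2), and 3 rose and 2 fell in all 6 left-out fits. The rises numbered 9 without monolayer replicate 1, and the falls 2 without day 20 replicate 1. COL17A1, the hemidesmosome collagen (ENSG00000065618, chromosome 10, 104031286 to 104085957), stood at 1.75 and 2.68 CPM in monolayers and 14.9 and 19.3 CPM at day 20 (2.95 ± 0.22, adjusted p = 1.36e-05). COL7A1, the collagen of anchoring fibrils, stood at 14.9 and 13 CPM and 44.2 and 37.8 CPM (1.56 ± 0.13, adjusted p = 2.87e-05). The laminin chain LAMA3 (1.04 and 1.08 CPM to 4.67 and 5.84 CPM, 2.31 ± 0.25, adjusted p = 0.000142) was the third to rise in all 6 fits.

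The 2 that fell in all 6 fits were the laminin chains LAMB1 and LAMA5 of other basement membranes. LAMB1 fell from 108 and 85 CPM to 51.3 and 51 CPM (-0.91 ± 0.11, adjusted p = 0.000293) and LAMA5 by 0.61 on the log2 scale (adjusted p = 0.00263). Of 14 integrin genes tested none was called higher and 4 were called lower, of which ITGA2, the collagen-binding alpha-2 chain, fell in all 6 left-out fits (11.4 and 15.3 CPM to 6.55 and 6.86 CPM, -0.99 ± 0.18, adjusted p = 0.00333). ITGB6, ITGB4 and ITGB1 were at log2 changes of -0.68, -0.42 and -0.39, and none of them was called without day 20 replicate 1 or 2 (highest adjusted p = 0.173, 0.141 and 0.0614). Leaving out day 20 replicate 1 or 2 reduced the integrin count to 1.

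Among squamous differentiation genes 6 of 17 tested rose and 4 fell. KRT16, a keratin of activated epidermis, stood at 1.72 and 1.03 CPM and 5.78 and 4.52 CPM (1.90 ± 0.30, adjusted p = 0.00158), and CSTA, the cysteine protease inhibitor stefin A, at 0.495 and 0.611 CPM and 2.33 and 1.87 CPM (1.92 ± 0.34, adjusted p = 0.0035). Both levels are low. The crosslinking enzyme TGM1 (2.41 and 1.88 CPM to 0.69 and 0.571 CPM) and the keratin KRT80 (105 and 66.3 CPM to 38.9 and 36.5 CPM) were at -1.76 and -1.19 and were not called without day 20 replicate 2 (adjusted p = 0.0579 and 0.0615). The envelope protein periplakin (PPL) fell by 0.62 on the log2 scale (adjusted p = 0.000497), and envoplakin (EVPL) was at -0.42, lost without day 20 replicate 1 or 2 (highest adjusted p = 0.0749). Without day 20 replicate 2 the rises numbered 3 and the falls 2, and without day 20 replicate 1 they numbered 4 and 3. The median over the 17 was 1.20. Each left-out fit applied the count filter anew, so its median covers the list members that then passed and need not describe the same 17. Those medians were 0.33 and 0.77 without monolayer replicate 1 and 2, and 0.37 without either day 10 library. They were 0.42 and 0.25 without day 20 replicate 1 and 2.

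**Figure D2:**
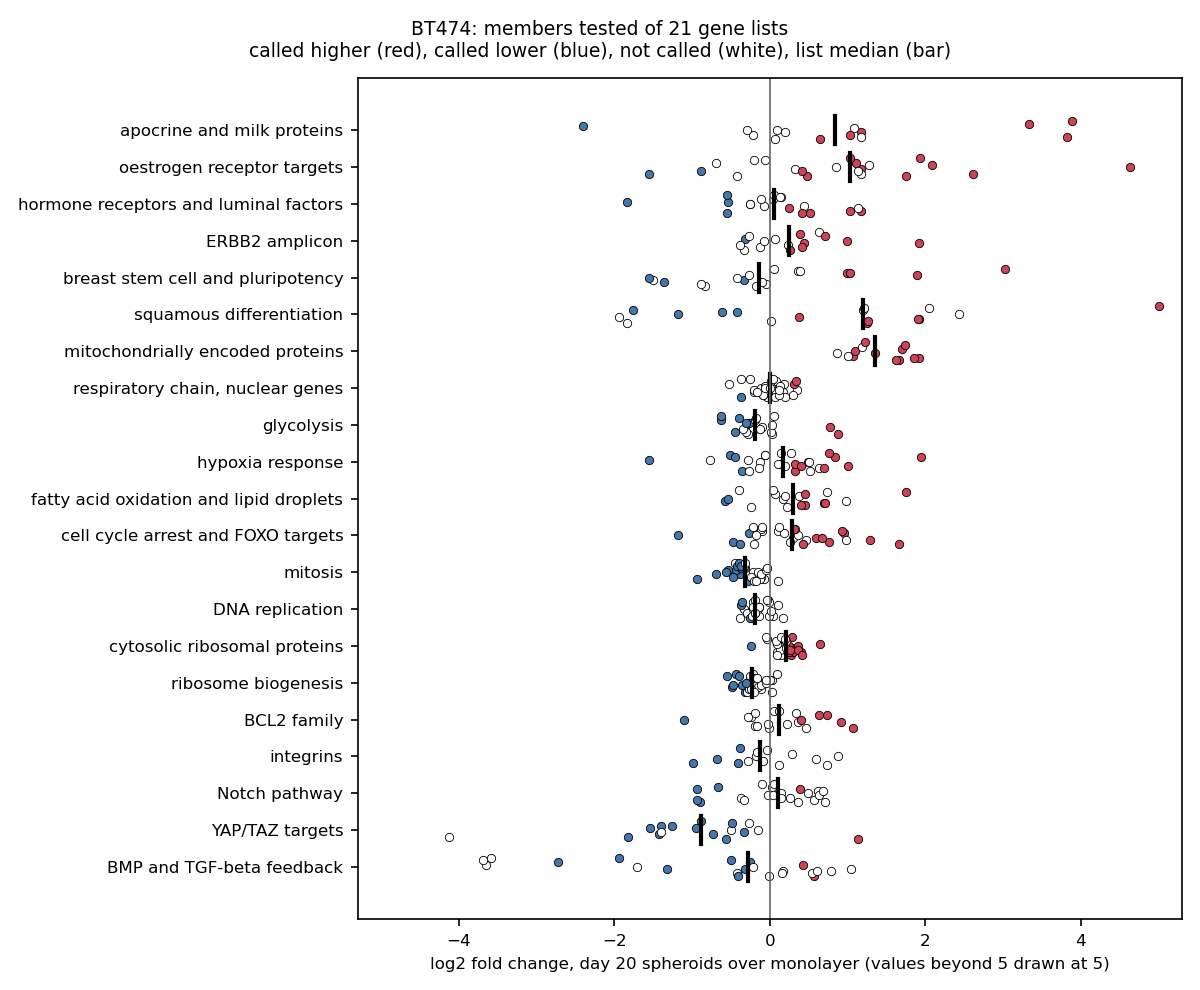
Log2 fold change of day 20 spheroids over monolayers for every tested member of 21 gene lists, 1 circle per gene, red where called higher, blue where called lower and white where not called, with the list median as a black bar. Targets of YAP and TAZ lie mostly left of 0 (median -0.88) and mitochondrially encoded genes right of it (median 1.35). KLK7, with no monolayer counts, is drawn at the right edge.

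Most tested targets of YAP and TAZ were lower at day 20, on a list chosen with earlier results of these data known. Of 17 tested, 11 fell and 1 rose, with a median of -0.88, against 8.65% and 8.95% of all genes, and 7 of the 11 fell in all 6 left-out fits. AMOTL1, a junction scaffold that binds YAP (ENSG00000166025, chromosome 11, 94706431 to 94876753), stood at 127 and 190.1 CPM in monolayers, 67 and 68.9 CPM at day 10 and 49.9 and 39.4 CPM at day 20 (-1.83 ± 0.20, adjusted p = 0.00107). AMOTL2, its paralogue (ENSG00000114019, chromosome 3, 134355874 to 134375479), stood at 75.5 and 63.1 CPM, 22.5 and 23.4 CPM and 27.6 and 23.9 CPM (-1.43 ± 0.12, adjusted p = 2.73e-05). PTPN14, a phosphatase that also binds YAP (ENSG00000152104, chromosome 1, 214348696 to 214552449), stood at 30.2 and 41.9 CPM, 13.6 and 14.6 CPM and 13.4 and 11.2 CPM (-1.55 ± 0.16, adjusted p = 0.00013). In each of the 3 every spheroid library was below both monolayers. CYR61, a matrix-associated signalling protein, and TEAD1, the DNA-binding partner of YAP, fell by 0.96 and 1.27 on the log2 scale (adjusted p = 0.00172 and 0.000131). These 2, and AJUBA and WWC1, which fell by 0.56 and 0.48, were picked for naming after their values were seen. DLC1, a tumour suppressor gene, was at -1.40 and the kinase LATS2 at -0.73, and both calls were lost without day 20 replicate 1 or 2 (highest adjusted p = 0.0593 and 0.0614).

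The 1 member that rose was GADD45B, a stress-induced growth arrest gene (14.3 and 15.2 CPM to 29.8 and 34.6 CPM, 1.13 ± 0.11, adjusted p = 0.000103). The TEAD proteins are known to bind the letters GGAATG, and PTPN14 is shown as a member that holds them in its promoter and fell in all 6 left-out fits.
PTPN14: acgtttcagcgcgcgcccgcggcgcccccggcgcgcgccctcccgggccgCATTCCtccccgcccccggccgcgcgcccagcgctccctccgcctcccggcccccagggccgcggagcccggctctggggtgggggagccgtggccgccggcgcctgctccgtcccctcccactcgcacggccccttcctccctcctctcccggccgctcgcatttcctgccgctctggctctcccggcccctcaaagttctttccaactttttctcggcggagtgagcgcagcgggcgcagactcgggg
The capitals mark GGAATG on either strand in this RefSeq window of 250 bases before to 50 after the start (chr1:214551553-214551852 on GRCh38.p14, minus strand), 200 bases upstream of the start. The same letters, searched for after the data were seen, were found in 7 of the 18 target promoters that could be matched. They were found in 14% of 27305 promoter windows. Of these 7 genes only PTPN14 and LATS2 were called, both lower, and a match is no evidence of binding.

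Genes of the bone morphogenetic protein (BMP) pathway, whose SMAD proteins carry the signal to the nucleus, included large differences that did not pass the test. ID1, an inhibitor of differentiation factors and a direct SMAD target, stood at 195 and 153 CPM in monolayers, 4.66 and 5.52 CPM at day 10, and 26.7 and 0.961 CPM at day 20 (-3.65 ± 1.43, adjusted p = 0.212). ID3, its relative, stood at 133 and 105 CPM, 4.06 and 4.3 CPM and 17.4 and 1.06 CPM (-3.69 ± 1.25, adjusted p = 0.168). All spheroid libraries were below the monolayers, but day 20 replicate 1 was above the day 10 pair and replicate 2 below it. IGFBP3, a secreted binding protein of insulin-like growth factors, had the same order, at 33.9 and 66.5 CPM, 0.797 and 0.973 CPM and 5.23 and 0.519 CPM (-4.13 ± 1.07, adjusted p = 0.0986). SMAD6, the feedback inhibitor of this pathway (ENSG00000137834, chromosome 15, 66702228 to 66782848), stood at 28.3 and 31.5 CPM, 3.14 and 3.92 CPM and 6.15 and 2.86 CPM (-2.73 ± 0.30, adjusted p = 0.000637), and was not called without monolayer replicate 1 or 2 (highest adjusted p = 0.0531). ATOH8, a transcription factor, showed the same order at 11.7 and 8.93 CPM, 0.676 and 0.848 CPM and 2.41 and 0.571 CPM (-2.79 ± 0.53, adjusted p = 0.0125), and was lost in the same 2 fits (highest adjusted p = 0.162). Of 22 BMP and TGF-beta feedback genes 7 fell and 2 rose (median -0.29), and none was called in all 6 left-out fits. The falls numbered 4 without day 10 replicate 1, day 10 replicate 2 or day 20 replicate 2, and the rises numbered 5 and 4 without monolayer replicate 1 and 2. The 2 rises were BAMBI, a decoy receptor, at 0.57 (adjusted p = 0.056 without day 20 replicate 1), and SKIL, a SMAD corepressor, at 0.42, lost without any 1 of the spheroid libraries (highest adjusted p = 0.277).

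Of the Notch receptors, NOTCH1 fell from 46.6 and 45 CPM to 24.9 and 22.9 CPM (-0.94 ± 0.12, adjusted p = 0.000492) and NOTCH2 from 276 and 306 CPM to 169.8 and 195 CPM (-0.67 ± 0.09, adjusted p = 0.000554). The ligand JAG1 and the target HEY2 were at -0.94 and -0.90, and both calls were lost without day 20 replicate 2 (adjusted p = 0.0956 for HEY2), that of JAG1 also without monolayer replicate 1, day 20 replicate 1 or either day 10 library (highest adjusted p = 0.249). Of 22 Notch genes 4 fell and 1, the target HES4, rose (0.39), a call lost without any 1 of the spheroid libraries (highest adjusted p = 0.171). The falls numbered 2 without day 20 replicate 2 and 6 without monolayer replicate 2, and the rises 3 and 2 without monolayer replicate 1 and 2.

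Other genes among the 12 largest falls of called protein-coding genes had varied functions. CBLN2, a secreted synapse organiser, stood at 9.06 and 13.3 CPM in monolayers and 2.1 and 0.857 CPM at day 20 (-2.92 ± 0.39, adjusted p = 0.000959). FREM2, a basement membrane protein (ENSG00000150893, chromosome 13, 38687129 to 38887131), stood at 67.2 and 91.4 CPM and 17.1 and 14.1 CPM (-2.35 ± 0.16, adjusted p = 7.60e-06). NRP1, a coreceptor of semaphorins and VEGF (ENSG00000099250, chromosome 10, 33177492 to 33336262), stood at 24.8 and 34.7 CPM and 7.35 and 6.21 CPM (-2.13 ± 0.19, adjusted p = 4.60e-05). All 3 were lower in both day 20 libraries than in either monolayer. The neural adhesion molecule NCAM2 fell by 2.12 and the actin-binding protein ABLIM1 by 2.29. CRYM, a thyroid hormone-binding protein, fell by 2.28, the monocarboxylate carrier SLC16A6 by 2.29, FGD5, an exchange factor for CDC42, by 2.48, DNAJC6, which uncoats clathrin vesicles, by 2.13 and PRRT1B by 2.76 on the log2 scale. The adjusted p of these 7 was between 7.13e-05 (SLC16A6) and 0.00447 (NCAM2).

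Of 28 mitosis genes 13 fell at day 20 by modest amounts and none rose (median -0.32), beside 8.65% and 8.95% of all genes. MKI67, the proliferation antigen Ki-67 (ENSG00000148773, chromosome 10, 128096659 to 128126385), stood at 115 and 145 CPM in monolayers and 64.4 and 70.6 CPM at day 20 (-0.94 ± 0.11, adjusted p = 0.000257). CENPF, a kinetochore protein (ENSG00000117724, chromosome 1, 214603195 to 214664588), stood at 185 and 208 CPM and 121 and 122 CPM (-0.69 ± 0.08, adjusted p = 0.000232). The kinase PLK1 (-0.57) and the factor FOXM1 (-0.54) were not called without day 20 replicate 2 (adjusted p = 0.0848 and 0.0737). TOP2A, the topoisomerase of S and G2 phase, stood at 244 and 264 CPM and 244 and 248 CPM (-0.04 ± 0.08, adjusted p = 0.749), with overlapping groups. The count of 13 became 6 without day 20 replicate 1 and 2 without day 20 replicate 2, the last being MKI67 and CENPF. Of 30 DNA replication genes 3 fell, namely MCM5, RRM1 and TK1 at -0.37, -0.36 and -0.26, and none rose. These 3 are 10% of the list, beside 8.65% of all genes and 1418 of 13611 protein-coding genes called lower. The median was -0.19, with -0.31 without monolayer replicate 1 and -0.06 without monolayer replicate 2. All 3 calls were lost without either day 20 library (highest adjusted p = 0.217, 0.145 and 0.293). Falls numbered 22 without monolayer replicate 1, 3 without monolayer replicate 2, where 4 genes were called higher, 1 without either day 10 library and 0 without either day 20 library.

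Because MKI67 was the member with the largest fall, its promoter is shown with the letters TTTGAA, the cell cycle homology region bound by the DREAM complex.
MKI67: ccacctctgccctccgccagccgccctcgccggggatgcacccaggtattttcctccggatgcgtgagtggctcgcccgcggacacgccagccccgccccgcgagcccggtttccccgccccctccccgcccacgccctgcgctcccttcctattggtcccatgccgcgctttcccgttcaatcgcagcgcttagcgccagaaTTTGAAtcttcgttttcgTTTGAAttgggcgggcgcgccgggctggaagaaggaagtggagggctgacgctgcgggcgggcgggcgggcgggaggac
Capitals mark TTTGAA on either strand (chr10:128126374-128126673 on GRCh38.p14, minus strand), at 47 and 29 bases upstream of the RefSeq start. These letters were found in 13 of 22 matched mitosis promoters and in 15.4% of all windows. Most of these 13 genes were not called.

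Growth arrest genes were called in both directions. BCL6, a transcriptional repressor and FOXO target (ENSG00000113916, chromosome 3, 187721377 to 187745727), stood at 9.3 and 8.6 CPM in monolayers and 28.9 and 27.8 CPM at day 20 (1.66 ± 0.11, adjusted p = 8.23e-06). BTG2, an antiproliferative gene, stood at 66.3 and 50 CPM and 128 and 157 CPM (1.29 ± 0.13, adjusted p = 0.000179). GADD45A and SESN3, 2 further FOXO targets, rose by 0.96 and 0.93 (adjusted p = 0.00102 and 0.00212). In contrast CDKN1A, the CDK inhibitor p21 (ENSG00000124762, chromosome 6, 36676460 to 36687339), fell from 31 and 36.6 CPM to 16.7 and 13.1 CPM (-1.18 ± 0.15, adjusted p = 0.000449). CDKN1B, the inhibitor p27, was at -0.27 and was not called without any 1 of the spheroid libraries (highest adjusted p = 0.347). In the list 9 of 28 rose and 4 fell (median 0.28), with 6 rises in all 6 left-out fits. Without day 20 replicate 2 the rises numbered 6 and the falls 1, and the falls numbered 2 without day 20 replicate 1 or either day 10 library. The other 2 falls were TXNIP, which binds thioredoxin (-0.39, lost without either day 20 library, highest adjusted p = 0.0796), and ERRFI1, an inhibitor of EGF receptors (-0.47, lost without either day 10 library or day 20 replicate 2, highest adjusted p = 0.223).

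In the BCL2 family, which sets the threshold of mitochondrial cell death, 5 of 19 members rose, all of them known to promote death, and 1 that protects from it fell (median 0.12). Of all genes 8.95% were called higher and 8.65% lower. BCL2, the survival protein (ENSG00000171791, chromosome 18, 63123346 to 63320128), fell from 22 and 31.3 CPM to 12.2 and 12.5 CPM (-1.11 ± 0.16, adjusted p = 0.000968). The BH3-only genes PMAIP1 (NOXA, 14.7 and 20.1 CPM to 34.7 and 38.1 CPM, 1.06 ± 0.14, adjusted p = 0.000547), BBC3 (PUMA, 22.2 and 21 CPM to 40.6 and 41 CPM, 0.92 ± 0.10, adjusted p = 0.000151) and BCL2L11 (BIM, 39.6 and 41.4 CPM to 58.6 and 67.3 CPM, 0.64 ± 0.10, adjusted p = 0.00155) rose. BOK, a relative of BAX and BAK, rose from 34.3 and 26.2 CPM to 48.7 and 51.8 CPM (0.73 ± 0.12, adjusted p = 0.00245). A further BH3-only gene, BMF, was at 0.40 and was lost without any 1 of the spheroid libraries (highest adjusted p = 0.22). The falls numbered 3 and the median was 0.20 without monolayer replicate 2, and the median was 0.24 without monolayer replicate 1.

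Hypoxia genes and glycolytic enzymes did not rise as a block. DDIT4, the mTORC1 inhibitor REDD1 that hypoxia and energy stress induce (ENSG00000168209, chromosome 10, 72273920 to 72276036), stood at 38.2 and 33.7 CPM in monolayers, 72.3 and 90.4 CPM at day 10 and 131 and 146 CPM at day 20 (1.94 ± 0.12, adjusted p = 4.02e-06). VEGFA, the vascular growth factor (ENSG00000112715, chromosome 6, 43770184 to 43786487), stood at 56.9 and 51.1 CPM and 97.1 and 85.6 CPM (0.76 ± 0.10, adjusted p = 0.000432). MXI1, an antagonist of MYC, rose from 6.98 and 9.02 CPM to 13.9 and 14.8 CPM (0.84 ± 0.15, adjusted p = 0.004). Each of these was higher in both day 20 libraries than in either monolayer. In all, 9 of 28 hypoxia genes rose and 4 fell, with a median of 0.17. Together 46.4% of this list was called, beside 17.6% of all genes. The rises numbered 5 and the falls 1 without either day 20 library, and the rises 6 without either day 10 library. The falls were CA12, described above, EGLN1 (-0.51), SLC2A1 (-0.45) and P4HA2 (-0.36), the last 3 not called without either day 20 library (highest adjusted p = 0.116, 0.092 and 0.292).

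LDHA, which converts pyruvate to lactate (ENSG00000134333, chromosome 11, 18394388 to 18408425), stood at 601 and 575 CPM and 389 and 371 CPM (-0.63 ± 0.07, adjusted p = 0.000254). HK1, the hexokinase of the mitochondrial surface, stood at 515 and 476 CPM and 319 and 322 CPM (-0.63 ± 0.07, adjusted p = 0.000179). Of 21 glycolysis genes 7 fell and 2 rose, with a median of -0.19. The falls numbered 2, LDHA and HK1, in the fits without day 20 replicate 1 or 2, and 11 without monolayer replicate 2. The 2 that rose were the lactate exporter SLC16A3 (0.88, lost without any 1 of the spheroid libraries, highest adjusted p = 0.222) and the enolase ENO2 (0.77, adjusted p = 0.0835 without day 20 replicate 2). As DDIT4 was the hypoxia gene with the largest rise, its promoter is shown with the core of the hypoxia response element, ACGTG.
DDIT4: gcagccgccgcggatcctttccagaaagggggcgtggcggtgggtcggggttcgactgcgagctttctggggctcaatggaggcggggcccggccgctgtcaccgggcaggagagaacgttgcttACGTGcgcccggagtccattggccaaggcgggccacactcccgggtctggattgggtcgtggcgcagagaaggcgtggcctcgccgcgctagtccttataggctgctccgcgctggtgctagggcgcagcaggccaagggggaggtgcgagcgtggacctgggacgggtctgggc
Capitals mark ACGTG on either strand (chr10:72273674-72273973 on GRCh38.p14, plus strand), 125 bases upstream of the RefSeq start. The letters were found in 15 of 26 matched hypoxia promoters and in 21.6% of all windows. Most of these 15 genes were not called, and EGLN1, which was called lower, is among them.

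Transcripts of the mitochondrial genome were more abundant in every spheroid library. The 13 protein-coding genes took 1.91% and 1.88% of the counts in monolayers, 4.58% and 3.04% at day 10 and 5.20% and 4.08% at day 20. The 95% Wilson interval of the last value was 4.08% to 4.09% and covers counting error only. MT-ND4, a subunit of complex I, stood at 2003 and 2173 CPM in monolayers and 7121 and 5742 CPM at day 20 (1.62 ± 0.25, adjusted p = 0.0155). MT-CYB, the cytochrome of complex III, stood at 1445 and 1412 CPM and 5297 and 3970.0 CPM (1.70 ± 0.26, adjusted p = 0.017). MT-ATP8, of the ATP synthase, stood at 29.4 and 38.9 CPM and 146 and 111 CPM (1.91 ± 0.31, adjusted p = 0.019). All 13 genes were higher in both day 20 libraries than in either monolayer, as were 28.9% of all genes tested, and 10 were called higher (8.95% of all genes), with a median of 1.35. None was called when either monolayer replicate was left out (adjusted p = 0.168 at the highest for MT-ND4), and 6 and 8 were called without day 20 replicate 1 and 2. Of 32 nuclear genes of the respiratory chain 2 rose, 1 fell and the median was 0.00. These were COX6C (0.33) and COX5B (0.30), both lost without any 1 of the spheroid libraries (highest adjusted p = 0.226 and 0.167), and NDUFS1 (-0.38, adjusted p = 0.146 without day 20 replicate 1). The counts were 3 and 2 without monolayer replicate 1 and 7 and 6 without monolayer replicate 2. The share of mitochondrial transcripts is also read as a sign of RNA and cell quality, and its part in the result was not tested. With the genes of the mitochondrial genome removed before scaling, 1531 genes were called higher and 1543 lower.

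**Figure D3:**
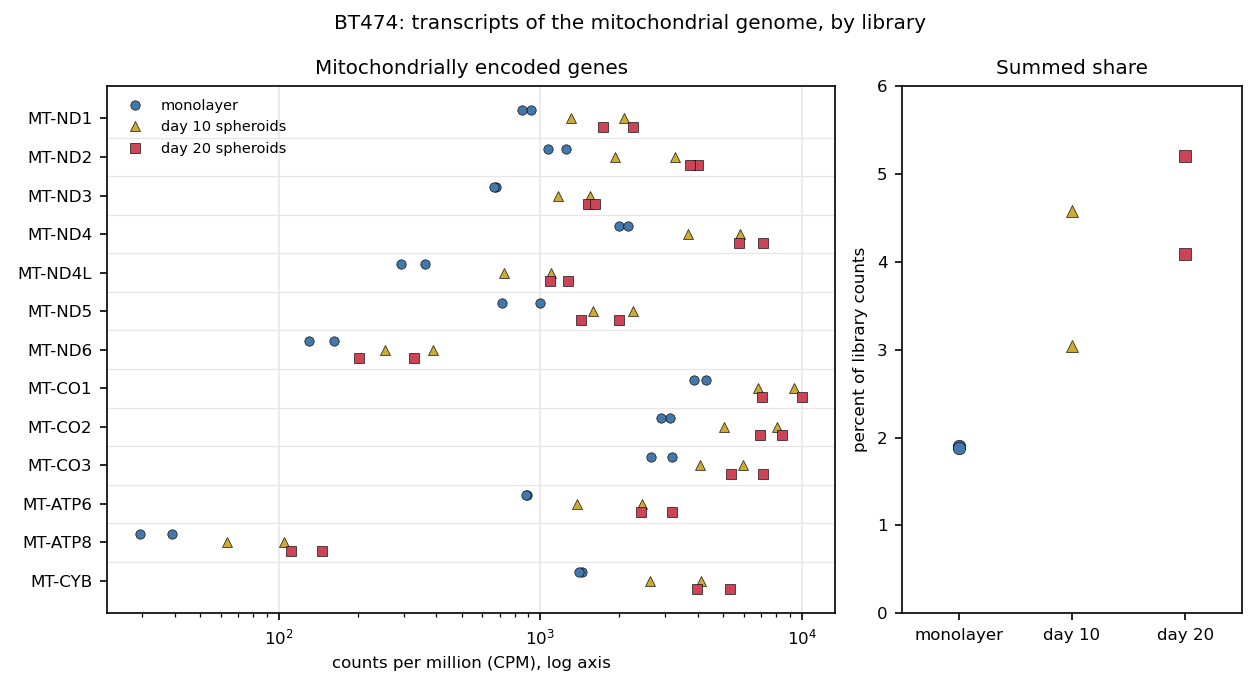
Left, CPM (log axis) of the 13 protein-coding genes of the mitochondrial genome in each BT474 library. Right, their summed share of the library's counts in percent, 1 symbol per library. The monolayers sit at 1.91% and 1.88%, below all 4 spheroid libraries.

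Lipid genes were called both for synthesis and for burning. THRSP, a regulator of lipogenesis, stood at 0.142 and 0.705 CPM in monolayers and 3.77 and 2.86 CPM at day 20 (2.96 ± 0.49, adjusted p = 0.0025). The desaturases SCD5 (29.7 and 31.1 CPM to 62.9 and 62.4 CPM, 1.04 ± 0.09, adjusted p = 3.09e-05) and FADS2 (687 and 529 CPM to 939 and 945 CPM, 0.63 ± 0.10, adjusted p = 0.00206) rose. PPARA, the nuclear receptor that drives fatty acid oxidation, stood at 0.849 and 1.25 CPM and 3.29 and 3.74 CPM (1.74 ± 0.27, adjusted p = 0.00156), and ACADVL, which starts the oxidation of long chains, at 345 and 316 CPM and 539 and 532 CPM (0.70 ± 0.07, adjusted p = 0.000128). The carnitine transferase CPT1A (415 and 414 CPM to 278 and 292 CPM, -0.54 ± 0.07, adjusted p = 0.000354) went down. Of 18 oxidation and droplet genes 6 rose and 2 fell (median 0.30), with 3 rises without day 20 replicate 1, and 4 falls without monolayer replicate 1. Of 22 synthesis genes 6 rose and 3 fell (median 0.02, and 0.12 without monolayer replicate 2). The 3 falls were ACACB, ACACA and ACLY, at -1.0, -0.51 and -0.23. The highest adjusted p without 1 library was 0.169, 0.0855 and 0.221. Of these falls, 1 was called without either day 10 library or day 20 replicate 2 and none without day 20 replicate 1, and without monolayer replicate 1 or 2 the list's falls numbered 5.

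Of 19 ABC transporter genes tested 3 rose and 2 fell, with a median of 0.11 (0.31 without monolayer replicate 2). The lipid pumps ABCA12 (25.9 and 32.3 CPM to 81.2 and 103 CPM, 1.66 ± 0.14, adjusted p = 2.87e-05) and ABCA1 (1.18 and 1.34 CPM to 3.05 and 4.44 CPM, 1.57 ± 0.26, adjusted p = 0.00245) rose. ABCA7 was at 0.40, and its call was lost without any 1 of the spheroid libraries. The falls were those of ABCA3 and ABCC5, by 0.79 and 0.66 on the log2 scale (adjusted p = 0.000254 and 0.00239). The drug pump ABCB1 was at 0.0236 and 0.188 CPM and 0.61 and 0.493 CPM (2.35 ± 0.75, adjusted p = 0.0533), and ABCG2 was at 1.09 and 4.14 CPM and 1.27 and 1.66 CPM (-0.83 ± 0.51, adjusted p = 0.311). Neither of the 2 drug pumps passed. ABCB1 was at 4.40 without monolayer replicate 2 and ABCG2 at -1.49 without monolayer replicate 1, in fits that hold no spread of the monolayers. The tubulin TUBB6 fell from 29.8 and 25.2 CPM to 7.93 and 6.57 CPM (-1.92 ± 0.15, adjusted p = 1.63e-05), and STMN1, which destabilises microtubules, rose from 179 and 171 CPM to 278 and 267 CPM (0.64 ± 0.08, adjusted p = 0.000266).

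The ATF4 programme of amino acid stress was called higher in 8 of 25 members and lower in 1, the transporter SLC1A4 (-0.28, lost without any 1 of the spheroid libraries, highest adjusted p = 0.17), with a median of 0.17. NUPR1, a stress-induced chromatin protein, stood at 217 and 282 CPM in monolayers and 406 and 429.7 CPM at day 20 (0.74 ± 0.11, adjusted p = 0.000926), and VLDLR, a lipoprotein receptor, at 9.63 and 9.68 CPM and 17.2 and 19.8 CPM (0.94 ± 0.13, adjusted p = 0.000719). The rises numbered 5 without day 20 replicate 1 and 4 without replicate 2, and the median was 0.09 and 0.31 without monolayer replicate 1 and 2. The small heat shock protein HSPB1 rose from 1541 and 1689 CPM to 3443 and 3355 CPM (1.07 ± 0.09, adjusted p = 2.87e-05). HSPA1B rose from 119.7 and 118 CPM to 199 and 220.0 CPM (0.82 ± 0.08, adjusted p = 7.25e-05), but it is nearly identical to HSPA1A, with which it may share or lose reads. Cytosolic ribosomal proteins were called higher in 14 of 30 cases and lower in 1, RPS2 (-0.24, lost without any 1 of the spheroid libraries, highest adjusted p = 0.293), with a median of 0.20. That count was 8 without either day 10 library, 5 without day 20 replicate 1 and 1, RPS23, without day 20 replicate 2. Genes that build ribosomes went the other way in 8 of 28 cases (median -0.23), with 15 called lower without monolayer replicate 1, 5 without either day 10 library and 1 without either day 20 library.

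Of 30 lysosome and autophagy genes tested 6 rose and 3 fell, with a median of 0.09 (0.06 without day 20 replicate 1, 0.14 without day 20 replicate 2). Rises in all 6 left-out fits were those of 2 autophagy genes, ULK1, which starts the process, and GABARAPL1, a coat protein of its vesicles, at 0.54 and 0.76 (adjusted p = 0.000963 and 0.00253). The falls were TFEB, the factor that drives lysosomal genes (-1.12), the lipid carrier ATG2A (-0.40) and the lysosomal membrane protein LAMP1 (-0.35). None of the 3 was called without day 20 replicate 2, and TFEB was called only in the full set of libraries and without monolayer replicate 2 (highest adjusted p = 0.21, 0.143 and 0.123). The rises numbered 10 without monolayer replicate 2 and 2 without day 20 replicate 1, and the falls 0 without day 20 replicate 2.

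Day 20 and day 10 spheroids were compared directly, since both share the monolayers as control. At day 20, 6 genes were higher (0.0344%) and 21 lower (0.12%) than at day 10. None of these 27 was called in all 6 left-out fits. The fits without a spheroid library called 1 to 10 genes, namely 6 higher and 4 lower without day 10 replicate 1, 0 and 1 without day 10 replicate 2, 2 and 1 without day 20 replicate 1, and 3 and 1 without day 20 replicate 2. Those without monolayer replicate 1 or 2 called 496 and 488 higher and 734 and 724 lower. Fitted alone, the 4 spheroid libraries gave 489 and 641 calls, in a fit whose spread does not hold the wide monolayer pair.

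PLA2G2A, a secreted phospholipase (ENSG00000188257, chromosome 1, 19975431 to 19980416), stood at 28.3 and 42.5 CPM in monolayers, 52.2 and 57.7 CPM at day 10 and 18.2 and 17.9 CPM at day 20 (day 20 over day 10, -1.61 ± 0.17, adjusted p = 0.00583). LRP2, the endocytic receptor megalin (ENSG00000081479, chromosome 2, 169127109 to 169362685), stood at 27.2 and 27, 32.6 and 34.8 and 14.4 and 16.2 CPM (-1.14 ± 0.11, adjusted p = 0.00388). KCNK3, a potassium channel (ENSG00000171303, chromosome 2, 26692690 to 26733420), stood at 5.1 and 7.54, 10.6 and 11.3 and 3.77 and 2.83 CPM (-1.73 ± 0.22, adjusted p = 0.0166). All 3 were highest at day 10 and lowest at day 20, with monolayers between. NDRG1, a hypoxia-induced gene, was at 88 and 78.9, 144 and 184 and 75.2 and 85.2 CPM (-1.03 ± 0.12, adjusted p = 0.00842), and the interferon-induced MX1 at 3.11 and 3.17, 7.71 and 6.87 and 3.18 and 3.04 CPM (-1.23 ± 0.19, adjusted p = 0.0353). For these 2, the day 10 libraries lay above all others, and day 20 differed from monolayer by -0.06 and -0.01. The NDRG1 call was lost without monolayer replicate 1 or 2, as well as in the fit of the 4 spheroid libraries alone. APOD, a lipocalin of secretory epithelium, had 2 counts over both monolayers, 17.3 and 16.4 CPM at day 10 and 6.47 and 6.93 CPM at day 20 (-1.33 ± 0.18, adjusted p = 0.023), and the ratio of day 20 over monolayer was 285 with a 95% interval of 78.4 to 2358 from counting error. EIF3C, a translation initiation subunit, was at 29.9 and 40.5, 71.3 and 66.7 and 27.2 and 27.8 CPM (-1.33 ± 0.13, adjusted p = 0.00388), but its near-identical copy EIF3CL was at 48.2 and 6.65 CPM at day 10 and 15.4 and 7.48 CPM at day 20, so the split of reads between them is uncertain.

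Of the 6 genes higher at day 20 than at day 10, 3 are protein-coding, namely DDIT4, CERK and PKIG. DDIT4 differed by 0.76 ± 0.11, adjusted p = 0.0306, CERK, the ceramide kinase, went from 19.6 and 18.9 CPM to 32.5 and 33.1 CPM (0.77 ± 0.10, adjusted p = 0.0192), and PKIG, an inhibitor of protein kinase A, from 21.7 and 23 CPM to 37 and 38.3 CPM (0.75 ± 0.12, adjusted p = 0.0353). CERK was at 18.4 and 18.3 CPM in monolayers. The other 3, named after their values were seen, differed by more. The long intergenic noncoding RNA LNCAROD went from 1.84 and 1.36 CPM to 7.06 and 6.31 CPM (2.08 ± 0.24, adjusted p = 0.00842), the pseudogene CYP2B7P from 8.33 and 9.37 CPM to 26.7 and 29.7 CPM (1.67 ± 0.16, adjusted p = 0.00388) and the pseudogene AL450405.1 from 17.4 and 20.1 CPM to 40.7 and 49 CPM (1.25 ± 0.14, adjusted p = 0.00583). Pseudogenes may share reads with the genes they resemble. LDHA (-0.52 ± 0.07, adjusted p = 0.0246) and TUBB6 (-0.90 ± 0.14, adjusted p = 0.0418) were lower at day 20 than at day 10, and are named here after their values were seen. Without 1 of the spheroid libraries the adjusted p reached 0.127 for PLA2G2A, 0.0791 for LRP2, 0.243 for KCNK3, 0.443 for APOD, 0.506 for MX1, 0.0637 for EIF3C, 0.451 for DDIT4, 0.549 for CERK, 0.549 for PKIG, 0.101 for NDRG1, 0.231 for LNCAROD, 0.0612 for CYP2B7P, 0.0871 for AL450405.1, 0.576 for LDHA and 0.586 for TUBB6. GATA3, the YAP and TAZ targets and the gland proteins named above did not pass this test.

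**Figure D4:**
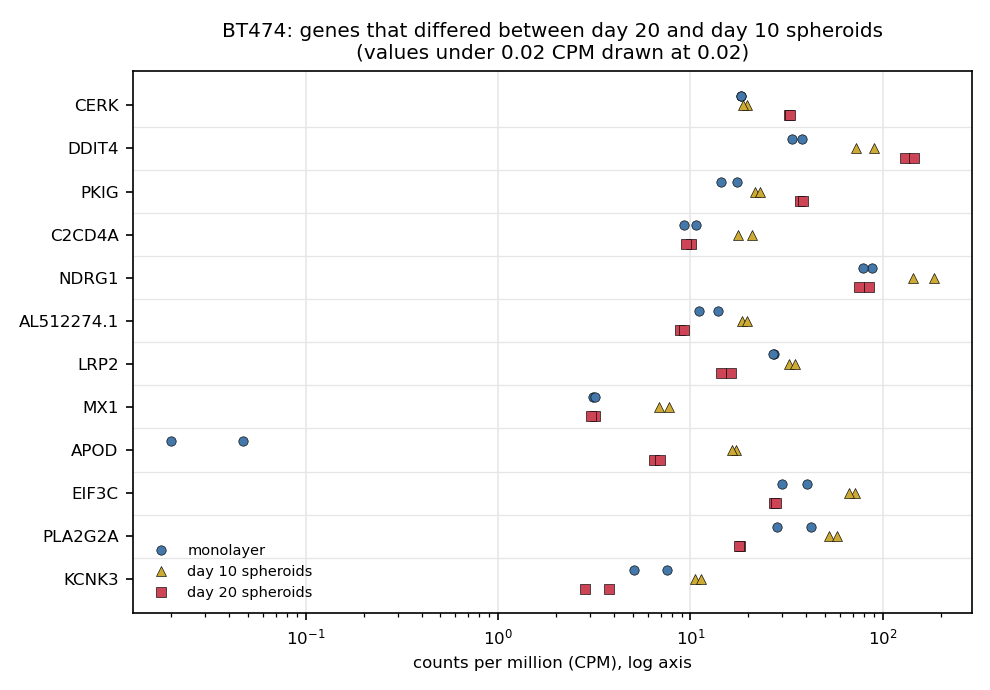
CPM (log axis) of 12 of the 27 genes called between day 20 and day 10 spheroids, in each BT474 library, with monolayers as blue circles, day 10 as yellow triangles and day 20 as red squares. CERK, DDIT4 and PKIG are higher at day 20 than at day 10, and the other 9 are lower. APOD monolayers are at or near 0 and are drawn at 0.02 CPM where no read was counted.

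Among long intergenic noncoding RNAs, 50 of 927 tested were called higher and 23 lower. Together 7.87% of them were called, beside 17.6% of all genes and 20.6% of protein-coding genes. LINC01411 (ENSG00000249306, chromosome 5, 174336295 to 174532457) stood at 3.23 and 5.38 CPM in monolayers and 24.2 and 28.7 CPM at day 20 (2.62 ± 0.21, adjusted p = 2.17e-05), and AC092171.3 at 17.4 and 13.2 CPM and 30.6 and 30.2 CPM (0.99 ± 0.14, adjusted p = 0.001). OLMALINC was at 0.89 and AC125807.2 and AL355338.1 at -1.10 and -0.84, none of them called without day 20 replicate 2 (adjusted p = 0.0922, 0.0509 and 0.072).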

How the data were processed

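The deposited table gives whole-number counts of reads per gene for 16 libraries. Alignment with HISAT2 2.2.1 and counting with featureCounts 2.0.6 are named in the submitters' processing notes, and the strand setting and the treatment of reads that match several genes are not given in the sources used here. The deposited FPKM values (fragments scaled by the authors for gene length and library total) served 1 alternative. Gene symbols, biotypes and GRCh38 positions come from the deposited table. The labels' replicate numbers were not used as a block.

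Of 58735 genes, 17447 passed the count filter of edgeR (minimum count 10, total 15). Library factors (TMM) and the quasi-likelihood test were those of edgeR 4.0.16 in R 4.3.3, with 1 robust fit of 6 libraries in 3 groups and Benjamini-Hochberg adjustment over all genes tested. This leaves 3 residual degrees of freedom. The standard error is the absolute log2 change divided by the square root of the F statistic. Library totals of 38230329 to 72489002 counts make counting error small for abundant genes, and intervals and floors (3 counts) cover counting error only. Even counts exceeded odd ones by 1.57 to 1.73 times, so both mates of a pair may have been counted, and a fit of halved counts was an alternative.

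Gene lists, named genes and tests were chosen with earlier results of these data known. Named genes were the 12 highest and 12 lowest called protein-coding genes (mean of at least 5 CPM, groups not overlapping), a panel, up to 4 called members of each list of at least 1 CPM in its more frequent direction and 2 in the other, 3 long intergenic noncoding RNAs per direction, and, for day 20 against day 10, up to 8 per direction. Outside this rule, and chosen after their values were seen, are ACLY, AJUBA, AL450405.1, BMF, CYP2B7P, CYR61, EVPL, FOXA1, GREB1, ID1, ID3, IGFBP3, JUN, JUND, KLK7, LAMA5, LAMP1, LATS2, LNCAROD, LTF, MIEN1, MT-ND4, P4HA2, PPL, SCGB2A2, TBX3, TEAD1, TRPS1, TXNIP and WWC1. The results of some genes are not reported here. Alternatives used limma 3.58.1 on log2(FPKM + 0.1), DESeq2 1.42.0, other filters and scalings, and each library left out, where a lone library is assumed to vary like the other groups. The fit was tested on simulated data, in which 100 genes per size were changed at day 20, by 2-fold or 4-fold. For day 20 against monolayer 63.6% and 76.8% of those tested were recovered, and 16 of 16855 unchanged genes were called. For day 20 against day 10 these values were 66.0%, 82.7% and 24 of 16841. With so few genes changed, the false calls are to be set against the recovered changes. All groups were given the same spread for a gene, whereas in the data the monolayer pair was the widest. Promoter windows are from RefSeq (GRCh38.p14). Of 14 motifs searched in them, 4 were added after seeing the data, the TEAD letters among them. Figures were drawn with matplotlib 3.10.9.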

Additional observations from a re-analysis of the deposited data

Results flagged for a closer look

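The direct test of day 20 against day 10 spheroids called 27 genes, whose difference from monolayer is not the same at both times. Of these, 12 are named by the rule for genes. Lower at day 20, as log2 change, were KCNK3 (-1.73), PLA2G2A (-1.61), EIF3C (-1.33), APOD (-1.33), MX1 (-1.23), LRP2 (-1.14), the long intergenic noncoding RNA AL512274.1 (-1.08), NDRG1 (-1.03) and C2CD4A (-0.98). Higher were PKIG (0.75), DDIT4 (0.76) and CERK (0.77). All 12 were also called by DESeq2, and none was called in all 6 fits that left out 1 library. With 2 libraries a group, no check for a library far from its group was possible.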

How the results depend on the processing

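The 1562 higher and 1509 lower calls of day 20 against monolayer became 1029 and 959 with those 4 libraries alone, 37 and 12 in a fit that added HCC1806, and 134 and 37 when tested against a log2 change of 1. In the last 2 settings 75.5% and 78.4% of calls were higher, against 50.9%. Over the fits without 1 library the calls ranged from 628 to 2573 higher and from 448 to 2654 lower. Size factors, both count filters, halved counts, DESeq2, limma on FPKM and the removal of mitochondrial genome genes (chosen after seeing the data) gave counts within 1.5 times. The 6 higher and 21 lower calls of day 20 against day 10 became 99 and 228 with no filter, 489 and 641 with the 4 libraries alone, 51 and 133 with DESeq2, and 0 and 0 with HCC1806 added, with limma and against a log2 change of 1 (320, 1670 and 81 genes at an unadjusted p under 0.05, against 1719). Without 1 library they ranged from 0 to 496 and from 1 to 734. The cause of these shifts was not tested. A replicate block gave 1660 and 1629 calls against monolayer and 14 and 56 against day 10. Same-numbered deviations from the group means correlated at 0.18 (monolayer and day 20), 0.0646 (day 10 and day 20) and -0.0276 (monolayer and day 10) over 10698 genes. These values cannot show whether libraries of the same number belong together. ESR1 was the only named gene to change sign past the threshold, from -0.37 without monolayer replicate 1 to 0.28 without monolayer replicate 2. Of 255 named genes, 209 kept direction and side of the threshold under limma, 246 under the block and 27 with HCC1806 added. With 2 libraries a group, 506 of the higher and 348 of the lower calls against monolayer held in all 6 fits without 1 library.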

Other observations

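Several signalling genes that respond within hours to growth factors were at new levels after 20 days. PHLDA1, a pleckstrin domain protein induced by receptor signalling, stood at 1.77 and 1.43 CPM in monolayers and 4.62 and 4.81 CPM at day 20 (1.56 ± 0.25, adjusted p = 0.0019). DUSP6, the phosphatase that switches off ERK, stood at 20.5 and 13.3 CPM and 37.4 and 38.2 CPM (1.16 ± 0.16, adjusted p = 0.000818). DUSP2, a nuclear phosphatase of the same family, took the other direction, at 7.03 and 8.53 CPM and 1.11 and 1.19 CPM (-2.75 ± 0.24, adjusted p = 3.30e-05). The AP-1 subunits also split, with JUN and JUND higher by 0.76 and 0.62 (adjusted p = 0.000151 and 0.000266) and JUNB lower, at -0.77 (adjusted p = 0.000318). Of 27 such genes 7 rose and 4 fell (median 0.06, and 0.18 without either monolayer), and the falls numbered 2 without any 1 of the spheroid libraries and 7 without monolayer replicate 2.

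Single members of defence and detoxification lists rose while most of their lists did not pass. OAS1, a sensor of double-stranded RNA, stood at 0.425 and 0.987 CPM in monolayers and 4.01 and 4.49 CPM at day 20 (2.58 ± 0.33, adjusted p = 0.000405), and PSMB8, a subunit of the immunoproteasome, at 1.7 and 1.53 CPM and 4.22 and 3.82 CPM (1.32 ± 0.22, adjusted p = 0.00256). Of 36 interferon-stimulated genes 4 rose and 1 fell, with a median of 0.16, which was -0.03 without monolayer replicate 1 and 0.49 without monolayer replicate 2. The rises numbered 15 without monolayer replicate 2, 2 without day 20 replicate 1 and 1, OAS1, without day 20 replicate 2, and the falls 7 without monolayer replicate 1. C1R, a protease of the complement cascade, rose from 2.71 and 2.54 CPM to 6.21 and 5.64 CPM (1.17 ± 0.21, adjusted p = 0.00319). The stress-induced OSGIN1 and the glutathione transferase GSTA4 rose by 1.36 and 1.34 (adjusted p = 2.73e-05 and 0.000609). Polyadenylated transcripts of the histone genes HIST1H2BD and HIST2H2BE rose by 0.78 and 0.85 (adjusted p = 0.000198 and 0.000461), although histone genes are near copies of each other and may share reads. Lower were the iron exporter SLC40A1 (98.7 and 98.5 CPM to 54.9 and 55.7 CPM, -0.83 ± 0.08, adjusted p = 8.30e-05), the metal importer SLC39A14 (30.2 and 32 CPM to 17.7 and 17.4 CPM, -0.83 ± 0.11, adjusted p = 0.000502) and AGR2, a disulfide isomerase of mucus-secreting cells (387 and 394 CPM to 226 and 214 CPM, -0.83 ± 0.07, adjusted p = 2.99e-05).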
